A study of Mus musculus with 6 samples.

Results

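WNT ligands of the gastrulating embryo were examined in day 4 embryoid bodies (EBs), the floating aggregates that mouse embryonic stem cells (mESCs) form when they begin to differentiate. The ligands were chosen by gene symbol, with earlier results of these data known. They are Wnt2, Wnt2b, Wnt3, Wnt3a, Wnt5a, Wnt5b, Wnt6, Wnt8a and Wnt11, which make 9 of the 23353 genes listed and 9 of the 19 members of the WNT family. The control group was the parental W9.5 mESC line, unedited at Evx1 (wildtype). The other group, EVX1-Δfs, was clone 14, a W9.5 derivative in which CRISPR-Cas9 left small frameshift deletions on both alleles of Evx1, in the part of exon 2 that encodes the homeodomain. Both lines were cultured as EBs for 4 days in serum medium without LIF, the cytokine that keeps mESCs undifferentiated. There were 3 libraries per genotype. The published methods state that lines under comparison were started together, with a different day for each replicate. Libraries with the same replicate number were taken to share a day. That is an assumption, and the ratios by day and the fits with a block rest on it. EVX1-Δfs is represented by a lone clone, so differences that arose in that clone apart from the edit cannot be told apart from those of the genotype.

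WNT proteins are secreted, lipid-modified signals. In the canonical branch they bind frizzled receptors with LRP co-receptors, stabilize beta-catenin and switch on TCF/LEF target genes, whereas noncanonical ligands act through planar cell polarity and calcium signalling to orient cell movement. In the mouse embryo, canonical WNT signalling is required to form the primitive streak and posterior mesoderm. Evx1 encodes a homeodomain transcription factor of the posterior streak.

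The sequences below show what was cut and what lies before the ligand genes on which the comparison turns. The CRISPR guide, with its PAM in capitals, matched the genome once without mismatch, on the plus strand of exon 2 of Evx1 at chr6:52265847-52265866 (NCBIM37, the assembly of mm9).
Evx1 guide: ccagatgcgccgataccgcaCGG
Promoter windows reaching from 250 bases before to 50 bases after an annotated start were taken from RefSeq on GRCm38.p6. They were found for 7 of the 9 ligands, 10 windows in all, and no entry was used for Wnt5a or Wnt8a. The 250 bases that precede the start are printed for Wnt2 (chr6:18030446-18030695, minus strand) and Wnt3 (chr11:103773925-103774174, plus strand), both lower in EVX1-Δfs EBs. They are also printed for the Wnt5b start (chr6:119449387-119449636, minus strand) and the Wnt11 start (chr7:98834862-98835111, plus strand) whose windows held a searched motif. Capitals mark the TCF/LEF core CTTTGAT, or ATCAAAG where it lies on the opposite strand.
Wnt2 upstream: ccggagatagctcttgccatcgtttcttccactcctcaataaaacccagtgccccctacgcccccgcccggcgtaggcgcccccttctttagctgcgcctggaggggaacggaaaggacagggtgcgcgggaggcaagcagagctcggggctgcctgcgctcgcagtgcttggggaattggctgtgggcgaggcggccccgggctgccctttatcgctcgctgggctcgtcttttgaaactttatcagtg
Wnt3 upstream: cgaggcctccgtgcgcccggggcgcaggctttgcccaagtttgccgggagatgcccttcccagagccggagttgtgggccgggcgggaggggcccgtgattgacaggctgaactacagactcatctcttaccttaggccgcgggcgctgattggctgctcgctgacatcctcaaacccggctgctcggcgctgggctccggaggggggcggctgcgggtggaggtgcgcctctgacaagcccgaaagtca
Wnt5b upstream: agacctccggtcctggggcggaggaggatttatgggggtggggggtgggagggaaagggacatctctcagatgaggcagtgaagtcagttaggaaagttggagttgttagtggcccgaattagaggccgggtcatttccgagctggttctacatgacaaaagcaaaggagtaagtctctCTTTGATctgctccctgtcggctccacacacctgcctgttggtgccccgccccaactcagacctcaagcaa
Wnt11 upstream: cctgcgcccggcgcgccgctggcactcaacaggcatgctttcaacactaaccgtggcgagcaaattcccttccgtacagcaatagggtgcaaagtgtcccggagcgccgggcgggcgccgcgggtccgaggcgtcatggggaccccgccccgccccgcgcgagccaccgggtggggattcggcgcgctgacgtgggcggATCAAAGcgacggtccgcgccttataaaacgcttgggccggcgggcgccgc
Both strands were searched for 5 motifs. The TCF/LEF cores were CTTTGAT and the related form CTTTGAA. The homeodomain cores were TAATTA and the related form TAATGA, and the T-box core was GGTGTGA. The first TCF/LEF core began 71 bases before the printed Wnt5b start, and its opposite-strand form began 51 bases before the printed Wnt11 start. These were the only matches in the 10 windows, so the windows at other annotated starts of Wnt5b and Wnt11 held none. Among all 32851 windows, 8.65% held either TCF/LEF core, 13.9% either homeodomain core and 3.98% the T-box core. The ligand windows were 53.0% to 86.3% GC, against a median of 52.7% over all windows. Of the ligands with a core in a window, Wnt5b was lower in EVX1-Δfs EBs and Wnt11 was not called. A match is a run of letters and not a mapped binding site.

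Reads assigned to genes numbered 7597879 to 9914471 per library. Values are normalized read counts, that is reads per gene divided by a factor for each library. Log2 values of libraries correlated across genes at Pearson r of 0.983 to 0.989 within a genotype and 0.973 to 0.983 between genotypes. The deletions are too small to be read from counts per gene. The Evx1 transcript itself stood at 2311 ± 119 in the parental line against 2294 ± 258 in the clone (SD, n = 3), which is no check of the genotype.

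Of the 9 ligands, 5 were lower in EVX1-Δfs EBs: Wnt3a, Wnt2, Wnt5a, Wnt5b and Wnt3. Wnt6, Wnt8a, Wnt11 and Wnt2b were not called. A gene was called when its adjusted p was under 0.05 in limma on log2(value + 1), with Benjamini-Hochberg adjustment over 13136 genes that reached 10 normalized counts in at least 3 libraries. All 9 ligands passed that filter. Among all genes tested, 2.95% were called lower and 2.08% were called higher. edgeR on the recovered reads also called 5 ligands lower, with 2.91% of all genes lower and 2.39% higher, and DESeq2 called 4, with 4.45% lower and 2.44% higher. No ligand was called higher by limma, edgeR or DESeq2, and 0 were higher at an unadjusted limma p under 0.05. The median log2 fold change was -0.55 over the 9 ligands and 0.000216 over all genes tested. In 6 of the 9 ligands the values of the genotypes did not overlap, 5 of them lower in EVX1-Δfs, where 14.7% of all genes tested did so, and 1 higher (Wnt2b), where 12.2% did so. In bulk RNA, fewer cells that express a ligand and less of its RNA per cell cannot be told apart.

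**Figure D1:**
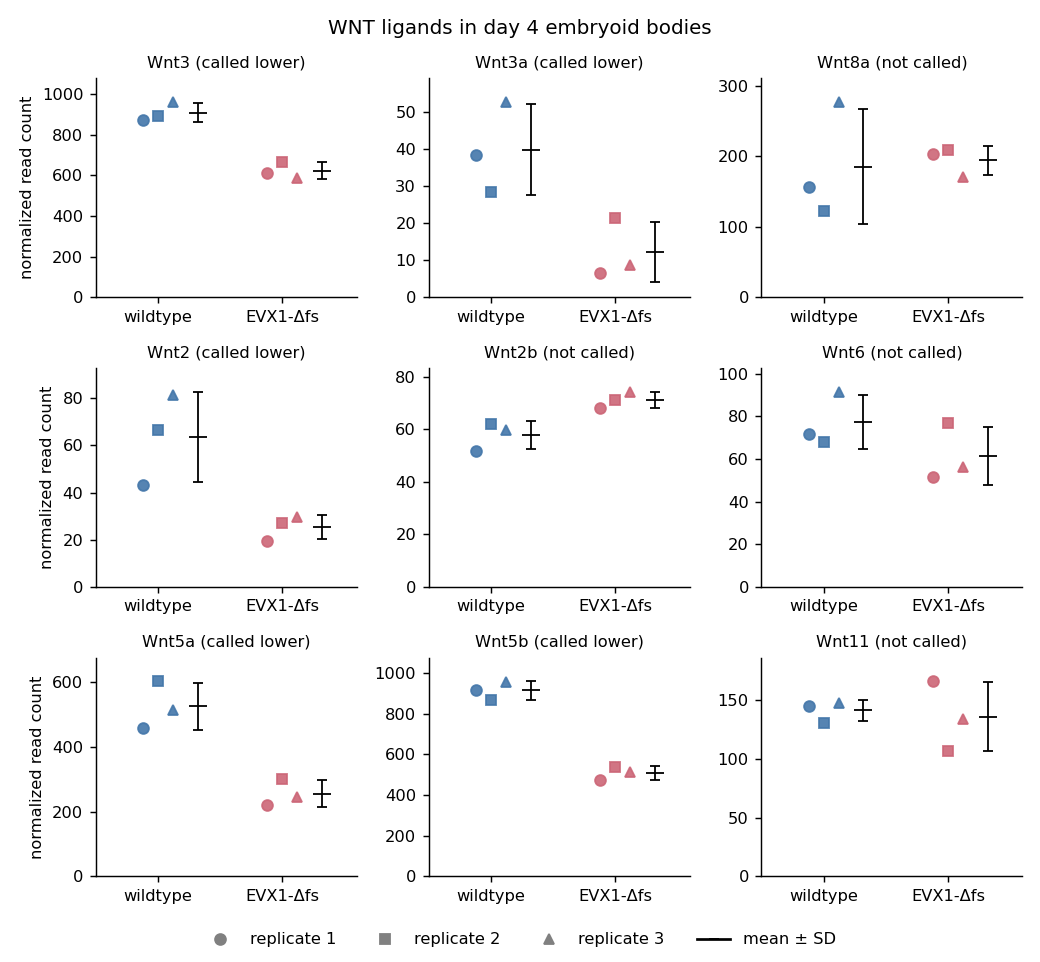
Normalized read count (y axis, from 0) of each of the 9 WNT ligands in wildtype and EVX1-Δfs day 4 EBs. Points are libraries, with a symbol for each replicate number, and bars give the mean ± SD of 3 libraries. The EVX1-Δfs points lie below every wildtype point for Wnt3, Wnt3a, Wnt2, Wnt5a and Wnt5b, and above them for Wnt2b. The groups overlap for Wnt8a, Wnt6 and Wnt11.

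Of the streak-forming and posterior canonical ligands, Wnt3 and Wnt3a were called lower and Wnt8a was not called. Wnt3, without which the mouse embryo forms no primitive streak, is a plus-strand gene of chromosome 11, 103635464 to 103679271 (NCBIM37, as for all gene positions here). Its normalized count was 872, 896 and 963 in wildtype replicates 1, 2 and 3 and at 611, 669 and 589 in EVX1-Δfs replicates 1, 2 and 3. The groups were well separated, with each group's values close together. On the 3 days the EVX1-Δfs library held 0.700, 0.747 and 0.612 of the wildtype value. The mean fell from 910 ± 47.0 to 623 ± 41.3 (SD, n = 3), 31.6% lower, a log2 fold change of -0.55 ± 0.11 (SE) and a limma adjusted p of 0.00877. Wnt3 passed the test whichever of the 6 libraries was left out. With the differentiation day as a block, where 1.11% of all genes tested were called lower, the adjusted p was 0.0343, and it was 0.0717 once trends of the values with GC content and exon length were removed as well.

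Wnt3a, the ligand of the late streak and tail bud that maintains paraxial mesoderm, was scarce. Its values were 38.3, 28.3 and 52.7 in wildtype and 6.54, 21.4 and 8.58 in EVX1-Δfs EBs, from 32 to 46 reads and from 7 to 19 reads per library. EVX1-Δfs replicate 2 came close to the lowest wildtype library, whereas the other two were far below it. The ratio on day 2 was accordingly 0.757, against 0.171 and 0.163 on days 1 and 3. The mean went from 39.8 ± 12.2 to 12.2 ± 8.07 (SD, n = 3), 69.4% lower, a log2 fold change of -1.75 ± 0.39 (SE), a 95% interval from -2.55 to -0.95 and a limma adjusted p of 0.0131. This call depended on the setting. The adjusted p was 0.0564 with the day as a block, 0.0521 with the GC and length trends removed, 0.0595 without wildtype replicate 3 and 0.0613 without EVX1-Δfs replicate 1. DESeq2 gave Wnt3a no adjusted p. The gene is on the minus strand of chromosome 11, 59061535 to 59104254.

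Wnt8a, a canonical ligand of the posterior epiblast and streak (chromosome 18, 34701967 to 34707927, plus strand), was not called. It read 157, 122 and 277 in wildtype and 203, 209 and 171 in EVX1-Δfs EBs. The EVX1-Δfs libraries lay inside the wildtype range, which wildtype replicate 3 set at its top. The log2 fold change of 0.15 had a 95% interval from -0.29 to 0.58 and a limma adjusted p of 0.719. Its sign turned to -0.11 without wildtype replicate 2.

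Wnt2, a canonical ligand of allantois, early endothelium and placental vessels (chromosome 6, 17938940 to 17980585, minus strand), had normalized counts of 43.1, 66.4 and 81.3 in wildtype against 19.6, 27.1 and 29.5 in EVX1-Δfs EBs. The highest EVX1-Δfs library stayed below the lowest wildtype library, and on each day the EVX1-Δfs value was under the wildtype one, at 0.455, 0.408 and 0.363 of it. The mean fell from 63.6 ± 19.3 to 25.4 ± 5.17 (SD, n = 3), 60.0% lower, a log2 fold change of -1.26 ± 0.28 (SE) and a limma adjusted p of 0.0122. Wnt2 held its call with the day as a block, but not without wildtype replicate 3 (adjusted p of 0.0590) or without EVX1-Δfs replicate 1 (0.0579), nor once the block was joined to removal of the GC and length trends (0.0504).

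Wnt2b, its closest relative, which acts with Wnt2 in foregut patterning (chromosome 3, 104747723 to 104764627, minus strand), stood the other way. It was at 51.7, 61.9 and 59.5 in wildtype and 68.2, 71.0 and 74.3 in EVX1-Δfs EBs. Every EVX1-Δfs value was above every wildtype value, but the difference was small. The log2 fold change of 0.30 had a 95% interval from -0.12 to 0.73 and a limma adjusted p of 0.392. The difference between the responses of Wnt2 and Wnt2b was not tested.

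Wnt6, an ectodermal canonical ligand (chromosome 1, 74818466 to 74831893, plus strand), overlapped between genotypes, with 71.8, 68.1 and 91.6 in wildtype and 51.4, 76.7 and 56.2 in EVX1-Δfs EBs. Its log2 fold change was -0.33, with a 95% interval from -0.78 to 0.12 and a limma adjusted p of 0.369. With the GC and length trends removed it was -0.12. At 61.4%, Wnt6 exons had the highest GC content of the 9 ligands.

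Wnt5a and Wnt5b, known best for noncanonical signalling, had the smallest adjusted p of the 9 ligands. Wnt5a drives axis elongation through planar cell polarity and is encoded on the plus strand of chromosome 14, 29317936 to 29340633. Its normalized count was 459, 604 and 514 in wildtype and 219, 301 and 245 in EVX1-Δfs EBs. No value of one genotype came near the other, and the ratio was nearly constant over the days, at 0.478, 0.499 and 0.476. The mean fell from 526 ± 72.8 to 255 ± 41.8 (SD, n = 3), 51.5% lower, a log2 fold change of -1.04 ± 0.14 (SE) and a limma adjusted p of 1.81e-04. Wnt5a was called in all 15 other settings of the test. Its exons share 358 bases with Gm2670 on the opposite strand.

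Wnt5b, a close paralogue of Wnt5a (chromosome 6, 119382549 to 119494336, minus strand), was at 918, 868 and 958 in wildtype and at 473, 538 and 514 in EVX1-Δfs EBs. The groups were again far apart, with day ratios of 0.515, 0.620 and 0.536. The mean fell from 915 ± 45.2 to 508 ± 32.6 (SD, n = 3), 44.4% lower, a log2 fold change of -0.85 ± 0.11 (SE) and a limma adjusted p of 1.65e-04. Like Wnt5a it was called in all 15 other settings. With the GC and length trends removed its log2 fold change was -0.66. How the counting treated reads that match both paralogues is not given in the sources used here.

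Wnt11, which guides convergent extension and cardiac differentiation (chromosome 7, 105983622 to 106003705, plus strand), was not called. It read 145, 131 and 148 in wildtype and 166, 107 and 134 in EVX1-Δfs EBs. The EVX1-Δfs libraries spread to both sides of the wildtype values. Its log2 fold change was -0.08, with a 95% interval from -0.44 to 0.29 and a limma adjusted p of 0.830, and it turned to 0.07 with the GC and length trends removed. Its exons share 364 bases with Gm8398 on the opposite strand.

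**Figure D2:**
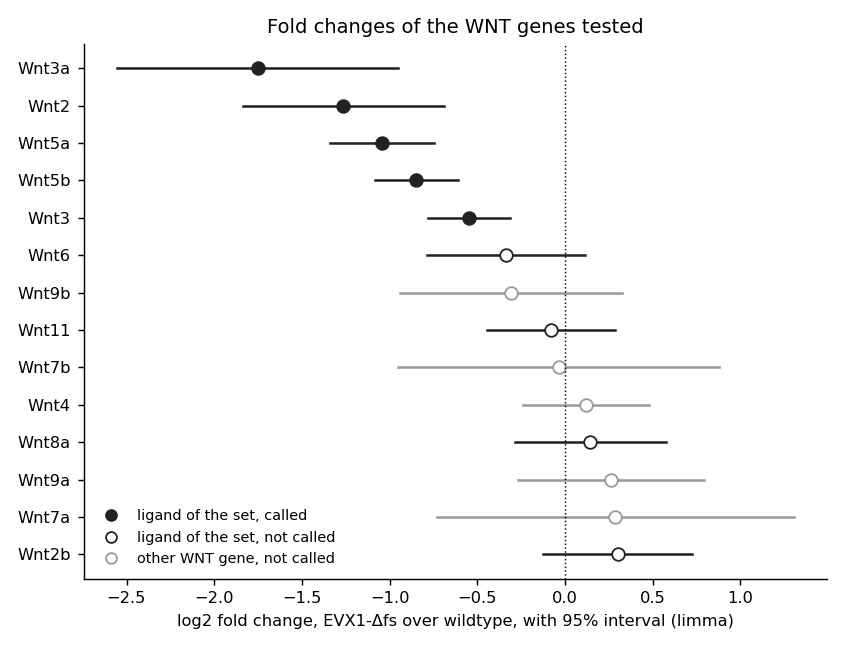
Log2 fold change of EVX1-Δfs over wildtype (x axis, limma on log2(value + 1), lines are 95% intervals) for the 14 WNT genes that passed the filter, ordered by value. Filled points are called. The 5 called ligands run from -1.75 (Wnt3a) to -0.55 (Wnt3) with intervals below 0, and the intervals of the other 9 genes include 0.

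The other 10 WNT genes were read beside the ligands. They are those left after the ligands were chosen with earlier results known, so they are no neutral background. Of these, 5 passed the filter and 0 were called by limma, edgeR or DESeq2, with 0 at an unadjusted limma p under 0.05. Wnt4, a ligand of kidney and gonad development, had a log2 fold change of 0.12 (adjusted p in limma of 0.723), and Wnt9a, a ligand of joint formation, had 0.26 (0.571). The epithelial and neural ligands Wnt7a and Wnt7b had 0.29 (0.770) and -0.04 (0.971), and Wnt9b, a kidney duct ligand, had -0.31 (0.580). Wnt1 was at 0 in all 6 libraries, and Wnt8b, Wnt10a, Wnt10b and Wnt16 reached no more than 12.4 normalized counts in any library. Several family members are neighbours in the genome. Wnt9b lies 24.3 kb from Wnt3 and Wnt9a lies 16.2 kb from Wnt3a, and neither neighbour was called while Wnt3 and Wnt3a were lower. The 95% interval of Wnt9b included the Wnt3 log2 fold change of -0.55, and that of Wnt9a was -0.27 to 0.79. The differences between neighbours were not tested. Wnt10a lies 6.2 kb from Wnt6 and had at most 0.957 normalized counts.

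Levels of different ligands were compared per kilobase of annotated exon. In wildtype EBs Wnt5b was the most abundant WNT transcript, at 349 ± 17.2 normalized counts per kb (SD, n = 3), followed by Wnt3 at 296 ± 15.3 and Wnt8a at 106 ± 46.6. The ranges of Wnt5b (331 to 365) and Wnt3 (284 to 313) did not overlap. Wnt5a came next at 67.2 ± 9.31 per kb, and its range of 58.7 to 77.2 met that of Wnt8a, 69.9 to 159. Wnt11 (38.9 ± 2.50), Wnt6 (37.3 ± 6.11) and Wnt2 (28.2 ± 8.55) had ranges that ran into each other. Wnt2b and Wnt3a were the lowest of the set, at 16.2 ± 1.51 and 14.4 ± 4.43 per kb.

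In EVX1-Δfs EBs Wnt3 (202 ± 13.4 per kb) and Wnt5b (194 ± 12.4 per kb, SD, n = 3) had overlapping ranges, 191 to 217 and 180 to 205. Wnt8a came next at 111 ± 11.7 per kb. Wnt5a, at 32.6 ± 5.34 per kb and above Wnt11 and Wnt6 in wildtype, here had a range shared with Wnt11 (37.4 ± 8.14) and Wnt6 (29.7 ± 6.5). Wnt2b (19.9 ± 0.864) stood above Wnt2 (11.3 ± 2.29), with ranges of 19.1 to 20.8 and 8.69 to 13.1, whereas in wildtype the order was the reverse, with ranges of 14.5 to 17.3 and 19.1 to 36.1. Wnt3a was lowest, at 4.41 ± 2.92 per kb.

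Summed over all 19 WNT genes, the level per kb was 985, 961 and 1114 in wildtype against 682, 765 and 702 in EVX1-Δfs EBs. Each EVX1-Δfs library was below each wildtype library, and the ratio of the means was 0.702. The 9 ligands made 93.3 ± 1.64% of this wildtype sum and 89.7 ± 1.73% of the EVX1-Δfs sum (SD, n = 3). Wnt3, Wnt5a and Wnt5b, grouped after their values were seen, made 70.3%, 72.7% and 66.8% of it in wildtype and 59.6%, 60.2% and 59.6% in EVX1-Δfs EBs. Within this group the share of Wnt5b went from 34.2 ± 1.39% to 27.0 ± 0.755% and that of Wnt5a from 6.63 ± 1.21% to 4.53 ± 0.464%, whereas Wnt3 held 29.1 ± 1.11% and 28.3 ± 0.919% (SD, n = 3), with overlapping ranges. Wnt8a with Wnt11, grouped in the same way, made 13.2%, 11% and 17.9% in wildtype and 23.7%, 19.5% and 19.2% in EVX1-Δfs EBs. These shares are parts of one sum, so a lower share of some ligands raises that of others.

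**Figure D3:**
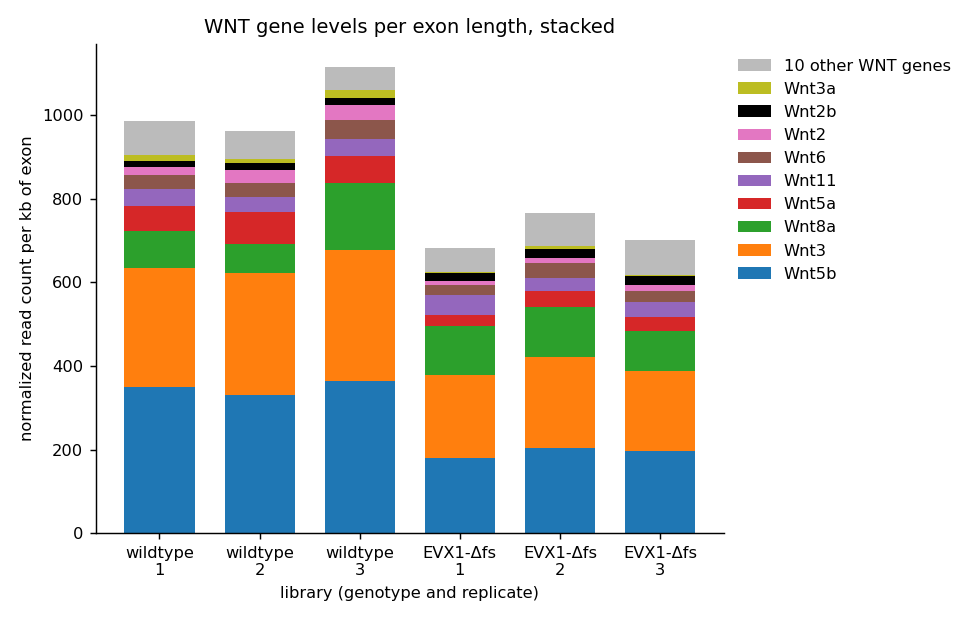
Normalized read count per kb of exon (y axis, from 0) of the 9 WNT ligands and the sum of the 10 other WNT genes, stacked for each of the 6 libraries. The stacks reach 961 to 1114 in wildtype and 682 to 765 in EVX1-Δfs, and most of each stack is Wnt5b and Wnt3.

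Ratios between ligands were taken in the same libraries, for pairs that were not planned beforehand. Wnt5b over Wnt11 and Wnt3 over Wnt8a set a called ligand over one not called, so they restate the values above. Wnt5b exceeded Wnt11 per kb by 8.74, 9.17 and 8.98 times in wildtype and by 3.94, 6.95 and 5.29 times in EVX1-Δfs EBs. The ratio was thus steady in wildtype and lower in every EVX1-Δfs library. Wnt5b exceeded Wnt5a per kb by 5.96, 4.29 and 5.55 times in wildtype and by 6.43, 5.32 and 6.25 times in the clone. This ratio was higher in the clone on each of the 3 days, although the genotypes overlapped. Wnt3 exceeded Wnt8a per kb by 3.16, 4.16 and 1.97 times in wildtype and by 1.71, 1.82 and 1.96 times in EVX1-Δfs EBs, and the wildtype spread nearly reached the EVX1-Δfs values.

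Across the 6 libraries the log2 values of Wnt5b and Wnt5a followed those of Wnt3 with Pearson r of 0.981 and 0.962, Wnt6 with 0.765, Wnt11 with 0.0815, Wnt8a with -0.03 and Wnt2b with -0.82. These coefficients contain the difference between genotypes and are given as a description. Wnt2 and Wnt3a were too low on average for this comparison. Among 10629 genes with a mean of at least 50 normalized counts, the 3 most like Wnt3 were Btbd2 (r of 0.998), Ssbp3 (0.997) and Mgll (0.997). Their log2 fold changes were -0.43 (limma adjusted p of 0.0272), -0.32 (0.0757) and -0.74 (0.0149).

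The rest of the pathway was read from 8 lists ordered by role, with 82 genes tested. Of these, 13 (15.9%) were called lower, against 2.95% of all genes tested, and 3 (3.66%) higher, against 2.08%. edgeR and DESeq2 called 14 and 13 lower. The lower calls were fewer with the day as a block (5, where 1.11% of all genes tested were lower), with the GC and length trends removed (3, where 0.827% were lower), and at 4 to 11 in fits that left out a library, with the 4 found without EVX1-Δfs replicate 1.

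The list for ligand secretion and delivery, which also holds Notum and Trabd2b, showed no lower call by limma, edgeR or DESeq2. At an unadjusted limma p under 0.05, 0 of its genes were lower and 3 were higher. Of 9 genes tested for ligand secretion and delivery, 1 was called higher, Gpc4, a cell surface glypican that binds WNT proteins, which rose from 76.6 ± 21.6 to 149 ± 17.7 normalized counts (SD, n = 3), 0.98 on the log2 scale (limma adjusted p of 0.00742). edgeR and DESeq2 each called 2 higher, adding Vps35, a retromer subunit that recycles Wls (adjusted p of 0.0499 and 0.0217, against 0.0589 in limma). Porcn, the acyltransferase that lipid-modifies WNT proteins, and Wls, which carries them to the surface, were looked up after values were seen, as was Vps35. Porcn had 107 ± 27.6 and 110 ± 9.75 normalized counts and Wls 1419 ± 176 and 1452 ± 130 in wildtype and EVX1-Δfs (SD, n = 3). Their 95% intervals of the log2 fold change were -0.34 to 0.48 and -0.21 to 0.28.

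Of 15 frizzled, LRP and Dishevelled genes, 3 were called lower. They were the cytoplasmic transducer Dvl2 (log2 fold change -0.52, limma adjusted p of 0.0299), the canonical co-receptor Lrp5 (-0.44, 0.0323) and the receptor Fzd10 (-0.44, 0.0338). With the day as a block none of the 3 was called, with adjusted p of 0.0700, 0.0734 and 0.0733. Of 13 noncanonical receptor and planar cell polarity genes, the formin Daam2 (-0.77, 0.0492) and the core polarity gene Vangl1 (-0.42, 0.0424) were called lower, and neither held with the block (0.0559 and 0.0727). Lrp5, Fzd10, Dvl2, Daam2 and Vangl1 each also lost the call in at least 4 of the 6 fits that left out a library. Of 7 receptor turnover and R-spondin genes, 0 were called by limma, edgeR or DESeq2, and 0 had an unadjusted limma p under 0.05. Of 8 genes of the beta-catenin destruction complex, 0 were called by any of the 3 tools, and 1 was lower at an unadjusted limma p under 0.05.

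Of 7 secreted antagonists tested, 2 were called higher. Cer1 binds BMP and nodal proteins, and the authors counted it among WNT pathway antagonists. It went from 33.9 ± 14.3 to 377 ± 72.8 normalized counts (SD, n = 3), 3.49 on the log2 scale (limma adjusted p of 2.37e-09). Sfrp1, a frizzled-related decoy, rose from 276 ± 64.1 to 445 ± 23.6 (0.72, 0.0105). Both were called with the day as a block and whichever library was left out. With the block joined to removal of the GC and length trends, Cer1 was called (limma adjusted p of 2.22e-04) and Sfrp1 was not (0.0547). Frzb, another frizzled-related decoy, named after its values were seen, stood the other way, at 202, 197 and 444 in wildtype and 167, 160 and 146 in EVX1-Δfs EBs. Its groups did not overlap, and wildtype replicate 3 was far above the rest. It was not called by limma (log2 fold change -0.72, adjusted p of 0.0527) or DESeq2 (0.194), but was called lower by edgeR (0.0327).

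Downstream, 3 of 12 nuclear effectors were called lower: the TCF/LEF factor Lef1 (log2 fold change -0.58, limma adjusted p of 0.0168), the co-activator Bcl9l (-0.48, 0.0215) and the co-repressor Tle3 (-0.42, 0.0294). With the day as a block Lef1 alone was called (0.0281), with adjusted p of 0.0564 for Bcl9l and 0.0638 for Tle3. Each was lost in some fits without a library, Lef1 without wildtype replicate 2 (and without EVX1-Δfs replicate 1 or 3). Of 11 canonical targets, 5 were called lower and 0 higher, with 0 higher by edgeR or DESeq2 and 0 at an unadjusted limma p under 0.05. Among them were the presomitic regulators Msgn1 (-1.39, 3.00e-04) and Tbx6 (-1.0, 0.0109) and the posterior homeobox gene Cdx2 (-0.70, 0.00903). The streak factor T and the feedback inhibitor Nkd1, named after their values were seen, were the others, and T was not called with the block (adjusted p of 0.0566). The remaining 6 targets were not called. They include Axin2 (-0.16, limma adjusted p of 0.493) and Sp5 (0.19, 0.419), also named after their values were seen. Sp5 was the 1 target of 11 with a positive log2 fold change. With the GC and length trends removed 2 targets were called lower, Msgn1 and Nkd1. In that fit the limma adjusted p was 0.0583 for Tbx6, 0.0861 for Cdx2 and 0.0507 for T. The median log2 fold change of the targets was -0.58, and several of them are also markers of the streak.

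**Figure D4:**
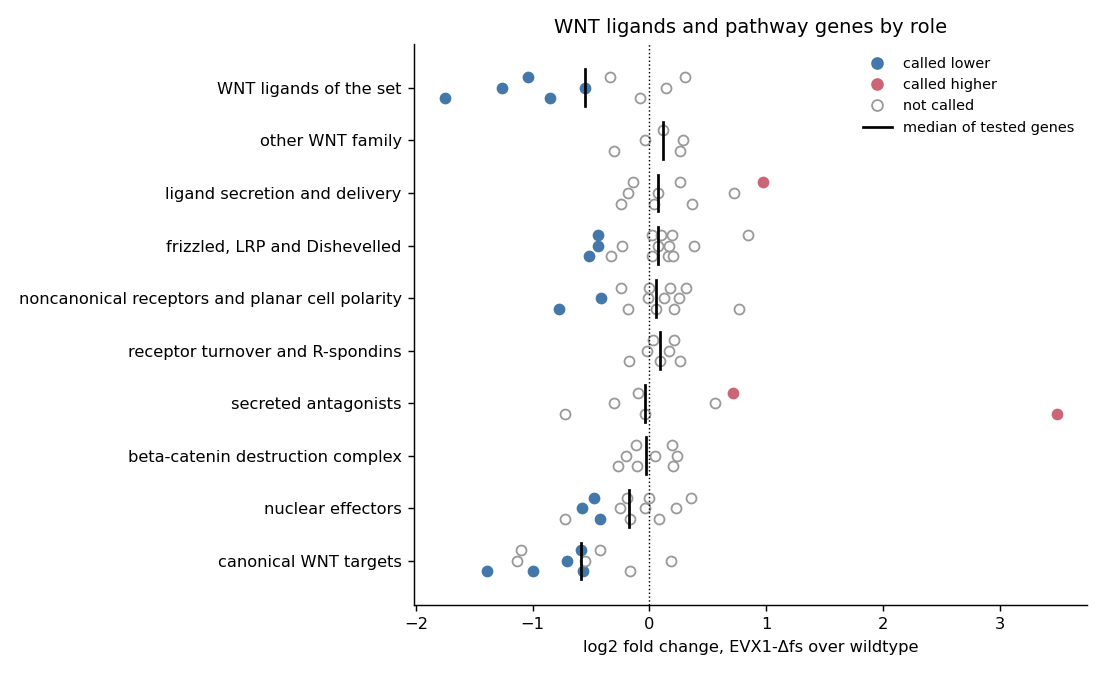
Log2 fold change of EVX1-Δfs over wildtype (x axis) for each tested gene of the WNT ligands, the other WNT genes and the 8 pathway lists (rows). Filled points are called, blue lower and red higher, open points are not called, and the black bar is the median of the row. The ligands and the canonical targets have the lowest medians, -0.55 and -0.58, and Cer1 stands far to the right at 3.49.

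Markers of the cell types an EB can hold were read beside the ligands. Summed levels overlapped between genotypes for anterior or definitive endoderm, pluripotency, neurectoderm and visceral endoderm. For the other lists each EVX1-Δfs sum was below each wildtype sum. Among all genes tested, limma called 2.95% lower and 2.08% higher. Of 11 primitive streak and nascent mesoderm markers, 8 were called lower, with Msgn1 the most lowered. Their summed level was 15119 to 18393 in wildtype and 10282 to 13169 in EVX1-Δfs EBs. For allantois, haematopoietic and endothelial markers, 4 of 11 were lower (3378 to 4426 against 1979 to 2262, with Etv2 at a log2 fold change of -1.10, and with Gata2, Kdr and Lmo2). For cardiac and lateral mesoderm, 3 of 9 were lower and 1 higher (4457 to 6925 against 2514 to 3401, with Hand1 at -1.28, Foxf1 and Bmp4 lower and Tbx5 at 1.64), and for trophoblast, which shares Hand1, Cdx2 and Eomes with the other lists, 3 of 5 were lower (6054 to 7943 against 3684 to 4284). Anterior visceral and definitive endoderm had 3 of 8 higher and 1 lower (950 to 1370 against 1173 to 1674, with Cer1, Foxa2 and Sox17 higher and Cxcr4 at -0.78). Pluripotency and epiblast markers had 2 of 12 higher and 1 lower (14242 to 19077 against 14980 to 17798, with Fgf5 at 0.61, Fgf4 higher and Tbx3 at -0.72). edgeR and DESeq2 each called 6 of these 12 higher, where they called 2.39% and 2.44% of all genes tested higher. They added Nanog, Sox2, Zfp42 and Esrrb, which had limma adjusted p of 0.0544 to 0.0559. With the day as a block limma called 0 of the 12 higher. Neurectoderm had 1 of 4 lower (2957 to 3908 against 3389 to 3762, Sox3 at -0.77) and surface ectoderm 1 of 9 lower (12196 to 12689 against 8910 to 10934, Krt8 at -0.41). Of 12 visceral endoderm markers 4 passed the filter and 0 were called by limma, edgeR or DESeq2, with 1 lower at an unadjusted limma p under 0.05 (416 to 448 against 391 to 483). Krt5, Prl3d1 and Psg21 were at 0 in all libraries. Genes given without a value here were named after their values were seen. With the day as a block, 5 streak markers were called lower, where 1.11% of all genes tested were. In that fit 1 anterior or definitive endoderm marker was called higher, where 76 of the 13136 genes tested were. Tbx5, Foxf1, Foxa2, Sox17, Fgf4, Fgf5, Sox3 and Krt8 were not called in it. The part of these cell types in the ligand values was not tested.

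Fold changes also followed base composition. Across the 12944 tested genes with a GC value, the log2 fold change fell with exon GC content, with a Spearman rho of -0.46. This is a correlation over genes, and genes are not independent replicates. The exons of the 9 ligands were 47.4% (Wnt5a) to 61.4% GC (Wnt6). When the trends of each library with GC content and exon length were removed, Wnt2, Wnt3, Wnt5a and Wnt5b were called lower and Wnt3a was not, against 0.827% of all genes. Wnt5a, whose GC content is the lowest of the set, had a log2 fold change of -1.13 in that fit. With the trends removed and the day as a block, Wnt5a (adjusted p of 0.00383) and Wnt5b (0.0159) were called. In that last fit 0.51% of all genes tested were called lower.

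**Figure D5:**
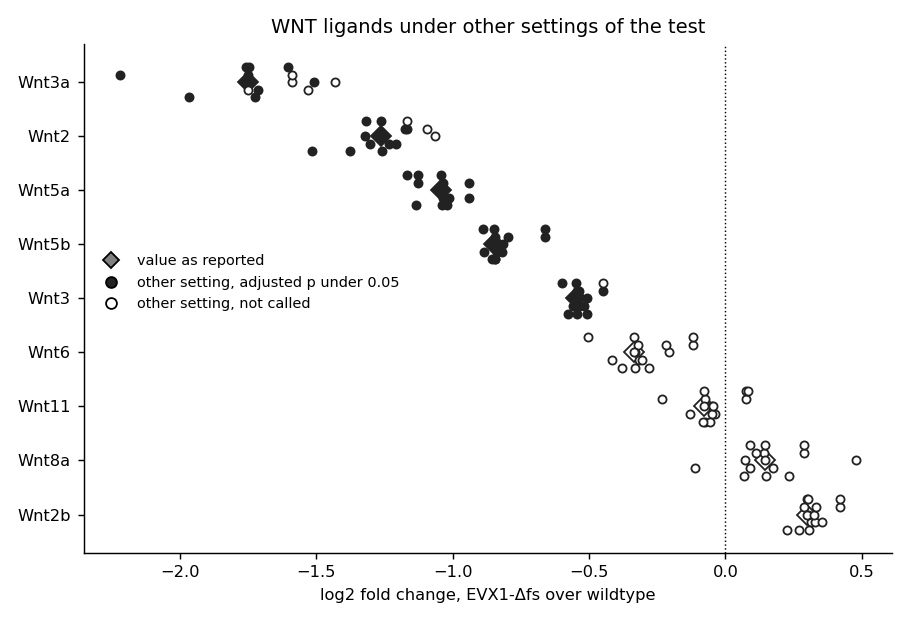
Log2 fold change of the 9 WNT ligands (x axis, EVX1-Δfs over wildtype) as reported (diamonds) and under the 15 other settings of the test (circles), filled where the adjusted p is under 0.05. Wnt3a has no adjusted p from DESeq2 and is drawn open there. Wnt5a and Wnt5b are filled throughout, Wnt3, Wnt2 and Wnt3a lose the call in some settings, and Wnt8a and Wnt11 fall on both sides of 0.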

How the data were processed

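Selected mRNA of day 4 EBs was sequenced on an Ion Proton in 3 libraries per genotype, with groups and replicate numbers taken from the labels. Per the labels and the published methods, the authors mapped reads to mm9 with TopHat2 and then TMAP, counted them per gene with HTSeq at standard settings and used DESeq2. Versions and annotation are not given in the sources used here. The deposited values are a signal, gene counts that the authors divided by 1 factor per library, from which whole reads were recovered for 100% of values (within 0.001).

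Because the values are normalized, limma 3.58.1 (R 4.3.3, mean-variance trend) was run on log2(value + 1) over genes with a value of at least 10 in at least 3 libraries. On this scale the added 1 draws differences between low values toward 0. edgeR 4.0.16 (quasi-likelihood) and DESeq2 1.42.0 on the recovered reads were alternatives, as were a pseudocount of 4, no filter, TMM and upper-quartile scaling, removal of GC and length trends (natural splines, 5 degrees of freedom), and leaving out each library. Per the published methods, lines under comparison were started together, with a different day for each replicate. The replicate number was assumed to mark that day and was also fitted as a block. Deviations of same-numbered libraries from their group means correlated at 0.111, 0.00933 and -0.10 across genes. Those of differently numbered libraries correlated at -0.141 to 0.131, so the same-numbered pairs did not stand out. Replicates of a group differed beyond sampling noise.

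Exon lengths came from GENCODE vM1 on NCBIM37, which matched 93.9% of symbols. Named were all 9 ligands, the other WNT genes that passed the filter, up to 3 called genes per direction in each pathway list, the most changed called gene per direction and any gene at 0 in each marker list, Evx1, and the 3 genes most like Wnt3. Members and lists were chosen with earlier results of these data known. The fits were tested on simulated data.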

Additional observations from a re-analysis of the deposited data

How the results depend on the processing

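Wnt5a and Wnt5b were called lower under all 15 alternatives, and Wnt3 under all but the fit that joined the replicate block to removal of GC and length trends. Wnt2 and Wnt3a depended on wildtype replicate 3 and EVX1-Δfs replicate 1. Over the 9 ligands, 5 were called lower, 4 with the replicate block, 4 with the trends removed, 2 with both, and 3 to 5 when a library was left out (3 without wildtype replicate 3, and 3 without EVX1-Δfs replicate 1). Adding the pairing by day ended the call of Wnt3a in the fit as reported, and those of Wnt2 and Wnt3 in the fit with the trends removed. Pathway genes called lower numbered 13, 5 with the replicate block, 3 with the trends removed, 2 with both, and 4 to 11 when a library was left out (4 without EVX1-Δfs replicate 1, 5 without EVX1-Δfs replicate 3, 7 without wildtype replicate 1). Higher pathway calls numbered 3, and 2 with both.

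Over all genes, 387 were called lower and 273 higher. These became 146 and 76 with the replicate block, 107 and 72 with the trends removed, and 66 and 32 with both. Leaving out a library gave 140 (without EVX1-Δfs replicate 1) to 362 lower and 80 (without EVX1-Δfs replicate 3) to 340 higher. Upper-quartile scaling gave 325 lower and 370 higher, and edgeR 382 and 314. The causes of these differences were not tested.

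Directions turned only among genes that were not called. Removing the trends, blocked or not, put Wnt11 at 0.074 and Wnt7b at 0.16. Wnt11 ranged from -0.23 to 0.082 when a library was left out. Wnt8a ranged from -0.11 to 0.48 over those fits. Wnt7b ranged from -0.25 to 0.21 and Wnt7a from -0.21 to 0.82. With the longest transcript as length, Wnt5b was at 391 per kb in wildtype. DESeq2 gave no adjusted p for Wnt3a, Wnt7a, Wnt7b, Wnt9b and Tbx5. For Wnt3a, with 7 to 46 reads per library, depth limits the estimate. The number of libraries limits all p-values here.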
